A study of Mus musculus with 8 samples.

Results

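The genes described here are Skp2, Pbsn and Prkx, 3 of the 36333 genes in the deposited table. They were chosen by name, with their difference between genotypes already known, so that difference is given as a description and no test of it is reported. Ventral prostates were taken from 4 hSKP2-KI mice and 4 wild-type (WT) mice, all of the FVB/N strain and 12 months old, and each mouse gave 1 RNA library. In hSKP2-KI mice a P2A peptide sequence followed by the human SKP2 coding sequence had been placed by CRISPR/Cas9 in exon 1 of the endogenous Pbsn gene, so that the probasin promoter drives it. Pbsn is X-linked and a male carries 1 copy, so a knock-in male has no intact allele beside the edited one. The founder line that was sequenced is not stated in the labels. The WT animals carried no insert, and neither group received a treatment.

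Probasin, the product of Pbsn, is a small secreted protein of the lipocalin family made by luminal cells of the rodent prostate, and its promoter is switched on by androgens. SKP2 is the F-box protein that brings substrates such as the cell cycle inhibitor p27 to the SCF ubiquitin ligase, which marks them for breakdown by the proteasome. PRKX is an X-linked serine/threonine kinase related to the catalytic subunits of cAMP-dependent protein kinase. A P2A peptide lets a single messenger RNA yield separate proteins.

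Levels are given as TPM, a read density per transcript length that is scaled to the same total in every library. Genes reaching a TPM of 1 in 4 or more samples, 13080 in number, were compared between genotypes with limma on log2(TPM + 1), and those with a Benjamini-Hochberg adjusted p under 0.05 were called. By this rule 33.9% of the genes tested were called (32.7% higher and 1.23% lower in hSKP2-KI prostates), and after each sample was rescaled by its median ratio to the other samples 11.2% were called (6.92% higher and 4.25% lower). The median difference of these genes was 0.23 on the log2 scale in favour of hSKP2-KI and -0.01 after that rescaling. Standard errors of log2 differences are from limma, which draws the variance of each gene towards that of genes of similar level. Such an error can be smaller or larger than the mice alone would give, and for the members it was smaller. The pooled SD of log2(TPM + 1) within genotypes is therefore given beside it for the members. The abundant secretory genes Sbp, Sbpl and Spink1 together held 40.4% to 45.8% of all TPM in WT and 32.1% to 34.3% in hSKP2-KI prostates. All members had a TPM of at least 1 in each of the 8 samples and none had overlapping genotypes, as was true of 35.1% of the genes tested. Skp2 and Prkx were among the 34.0% with all hSKP2-KI samples above all WT samples, and Pbsn was among the 1.03% with all hSKP2-KI samples below.

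Pbsn (Entrez 54192), the host of the insert, lies at chrX:77837898-77853500 on the minus strand in GRCm38, spans 15.6 kb and has 7 exons in the transcript Pbsn-201 of GENCODE. Its TPM was 3980, 9232, 4218 and 6506 in WT replicates 1 to 4. In hSKP2-KI replicates 1 to 4 the Pbsn TPM was 97.8, 93.4, 93.0 and 173.8. The lowest WT value stood far above the highest hSKP2-KI value, and within hSKP2-KI 1 mouse, replicate 4, stood apart above 3 nearly equal ones. The mean Pbsn TPM was 5984 ± 2447 (SD, n = 4) in WT and 115 ± 39.6 (SD, n = 4) in hSKP2-KI prostates, and the WT mean was 52.2 times the hSKP2-KI mean. The log2 difference was -5.66 with a limma standard error of 0.27 (pooled SD of the mice 0.51), and it was -5.93 after median-ratio scaling. Only 1 tested gene had a larger absolute difference than Pbsn, which ranked 2.

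In WT prostates Pbsn ranked between 6 and 10 among all genes by TPM, and it held 0.598% ± 0.245 (SD, n = 4) of the total. In hSKP2-KI prostates the Pbsn rank lay between 555 and 1209, so it remained a well detected transcript. Set against Sbp, the most abundant secretory gene of the ventral lobe, Pbsn TPM was 2.49% ± 1.11 (SD, n = 4) of Sbp TPM in WT and 0.0565% ± 0.0210 (SD, n = 4) in hSKP2-KI prostates. The residual hSKP2-KI signal was 1.91% ± 0.662 (SD, n = 4) of the WT mean of Pbsn. How reads from the edited transcript were assigned is not stated, and a table with 1 value per gene does not show which exons the remaining Pbsn reads came from.

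The DNA around the edited exon is shown from the RefSeq promoter window in GRCm38.p6 because the promoter and the first exon are where the insert and the Pbsn value meet. GENCODE places the start of Pbsn-202 at chrX:77853530 and that of Pbsn-201 at chrX:77853623. The first sequence, chrX:77853624-77853750 on the minus strand, ends just upstream of the Pbsn-201 start. The other sequences are 30-base stretches at chrX:77853578-77853607, chrX:77853542-77853571 and chrX:77853466-77853495, and their capitals mark AGAACA (the letters of an androgen response half-site), TATAAA (the letters of a TATA box) and the start codon of exon 1. The AGAACA begins 65 bases and the TATAAA 29 bases before the Pbsn-202 start, and both lie inside exon 1 of Pbsn-201.
Pbsn upstream stretch: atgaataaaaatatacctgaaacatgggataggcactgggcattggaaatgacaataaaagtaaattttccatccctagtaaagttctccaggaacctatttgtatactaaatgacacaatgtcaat
Pbsn AGAACA stretch: caactgggatgcAGAACActgctcacgcca
Pbsn TATAAA stretch: ctgaaagccaacTATAAAaagcagagagat
Pbsn exon 1 start codon: agtcgctcacacATGatgagggtcatcatc

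Of 32851 RefSeq promoter windows of 300 bases, 19.0% held AGAACA and 13.6% held TATAAA on either strand, so each is common at this length. The Pbsn window held both on the gene strand. The complete palindrome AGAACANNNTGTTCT was in 3 windows (0.00913%) and not in that of Pbsn. CCAAT, present in 37.4% of windows, was on the other strand of the Pbsn window, and TTTCCCGC, present in 1.07%, was not found there. The Pbsn window was 43.3% GC against a median of 52.7% over all windows. The window is 250 bases before and 50 after the RefSeq start, and these letters say nothing of which factors were bound in these mice.

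Skp2 (Entrez 27401), whose human counterpart was inserted, lies at chr15:9111982-9155425 on the minus strand, away from the edited locus. Its TPM was 43.3, 51.1, 37.3 and 60.6 in hSKP2-KI replicates 1 to 4. In WT replicates 1 to 4 the Skp2 TPM was 2.01, 1.05, 1.67 and 2.27. All hSKP2-KI mice were high, replicate 4 highest, and all WT mice were close to the detection filter. The mean Skp2 TPM was 48.1 ± 10.1 (SD, n = 4) against 1.75 ± 0.528 (SD, n = 4), a ratio of means of 27.5. The log2 difference was 4.16 with a limma standard error of 0.17 (pooled SD of the mice 0.30) and 3.94 after median-ratio scaling, rank 6 by absolute size among the tested genes. Because 1 was added to each TPM, this log2 value understates the ratio, and with 0.1 added it was 4.73. By TPM, Skp2 moved from a rank between 10997 and 12812 in WT to one between 1838 and 2959 in hSKP2-KI prostates. Human SKP2 is not a gene of the table, so the mouse transcript and any human reads placed on it cannot be told apart in this value.

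RefSeq gives Skp2 more than one start. One of them faces the gene Lmbrd2, which begins at chr15:9140528 on the plus strand and codes for a membrane protein, and the span of Skp2 overlaps that of Lmbrd2. The 73 bases between them, chr15:9140455-9140527, are shown on the minus strand as the stretch that both genes share.
Skp2 and Lmbrd2 shared gap: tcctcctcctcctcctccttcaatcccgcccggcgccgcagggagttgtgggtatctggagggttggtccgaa
The gap was 64.4% GC and held none of the 5 motifs searched, so it has no capitals. Lmbrd2 had a mean TPM of 13.7 in hSKP2-KI and 13.6 in WT prostates, a log2 difference of -0.00 with a standard error of 0.19 (limma, adjusted p = 0.993). The other Skp2 window, chr15:9155376-9155675, held CCAAT on the gene strand and AGAACA on the other strand. Whether counting used the strand of reads is not stated, so reads in the overlap of Skp2 and Lmbrd2 may be split between them in an unknown way.

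The edited locus and the Skp2 row were next compared within each mouse. In hSKP2-KI prostates Skp2 stood at 43.5 ± 8.41 TPM (SD, n = 4) for every 100 TPM of Pbsn, between 34.9 and 54.7. In WT prostates it stood at 0.0341 ± 0.0165 (SD, n = 4) for every 100. Pbsn and Skp2 added together gave 163 ± 48.3 TPM (SD, n = 4) in hSKP2-KI prostates. That sum was 2.72% ± 0.807 (SD, n = 4) of the mean Pbsn TPM in WT, and between 2.18% and 3.92% in single mice. No hSKP2-KI prostate therefore held, under these 2 gene names together, a TPM near that of Pbsn alone in WT. How reads of the edited transcript were placed under these names, or left unplaced, is not stated. The sum is therefore not a measure of the output of the edited locus.

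Prkx (Entrez 19108) is the gene next to Pbsn on its downstream side. It lies at chrX:77760972-77796235 on the minus strand, and Pbsn is read towards it, with 41.7 kb between the genes. The Prkx TPM was 61.2, 65.2, 17.2 and 52.3 in hSKP2-KI replicates 1 to 4. It was 11.4, 14.2, 13.0 and 13.5 in WT replicates 1 to 4. The WT mice formed a tight group, whereas hSKP2-KI replicate 3 stood near them and the other hSKP2-KI mice stood well above, and the genotypes did not overlap. The mean Prkx TPM was 49.0 ± 21.8 (SD, n = 4) against 13.0 ± 1.19 (SD, n = 4), a ratio of 3.76. The log2 difference was 1.68 with a limma standard error of 0.33 (pooled SD of the mice 0.62) and 1.42 after median-ratio scaling, rank 69 by absolute size. Without hSKP2-KI replicate 3 it was 2.11. The coefficient of variation was 44.6% in hSKP2-KI and 9.13% in WT prostates. The same hSKP2-KI replicate 3 held the lowest Skp2 and Pbsn values of its group, although for Pbsn it was close to replicates 1 and 2. A Prkx promoter window was not used here.

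**Figure D1:**
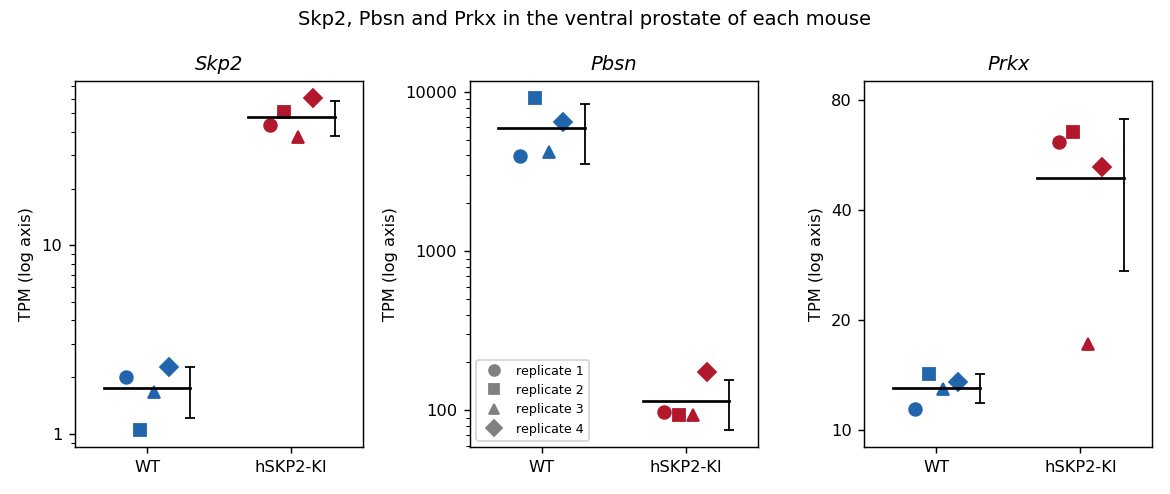
TPM of Skp2, Pbsn and Prkx (log axes) in each WT (blue) and hSKP2-KI (red) mouse; symbols are replicate numbers, horizontal lines are means and error bars are ± 1 SD (n = 4). The genotypes do not overlap for any of the genes, and hSKP2-KI replicate 3 has a Prkx TPM of 17.2, close to the highest WT value of 14.2.

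Other genes around the insert were set beside Prkx. Few of them could be tested, and whether the difference of Prkx is tied to its position was not tested. Of the 19 annotated genes nearest to Pbsn other than Prkx, 10 on each side, 9 were in the table and 6 of these were listed at 0 in every sample. A listed 0 is not proof of absence in a table without read counts. Gm14744, the gene next to Pbsn on the far side from Prkx, was too low to be tested, at 0, 0.487, 0 and 0.557 TPM in hSKP2-KI and 0.528, 1.14, 0.107 and 0.863 TPM in WT replicates 1 to 4, and its genotypes overlapped. 5430402E10Rik was above 0 in hSKP2-KI replicate 3 alone, at 0.102 TPM, and Cldn34-ps and the odorant-binding lipocalin genes Obp1a and Obp1b were listed at 0 throughout. Tbl1x, which codes for a subunit of a nuclear receptor corepressor complex, was the only one of the 19 that could be tested. It had a mean TPM of 32.9 in hSKP2-KI and 27.8 in WT prostates, a log2 difference of 0.24 with a standard error of 0.11 (limma, adjusted p = 0.102), the same size as the median of all genes, and -0.02 after median-ratio scaling (adjusted p = 0.891).

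The next step outward took in the 10 tested genes on each side of Pbsn, between chrX:75382399 and chrX:94417093, an extension chosen after the data were seen. Without Prkx these were 19 genes, of which 4 were called higher and 0 lower, where 32.7% of all tested genes were called higher and 1.23% lower. Their differences lay between -0.05 and 0.63 with a median of 0.14. The 4 were Tmem47 (0.63, limma adjusted p = 0.003), Dmd, the dystrophin gene (0.51, adjusted p = 0.0156), Vbp1, a prefoldin subunit (0.41, adjusted p = 0.011), and Eif2s3x, a translation initiation factor subunit (0.22, adjusted p = 0.0259). These genes lay far from Pbsn, Vbp1 at 2303 kb, Tmem47 at 3217 kb, Dmd at 4961 kb and Eif2s3x at 16335 kb. On the far side from Prkx no tested gene was nearer than Tmem47. Eif2s3x lost its call without hSKP2-KI replicate 2, 3 or 4 or WT replicate 3 or 4 (adjusted p between 0.0511 and 0.0683), and its difference turned to -0.05 after median-ratio scaling. With median-ratio scaling 1 of the 19 was called, Tmem47, at 0.39 (adjusted p = 0.0251), where 6.92% of all tested genes were called higher. Prkx, at 1.68, stood above each of these differences.

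Around Skp2, 6 of the 20 nearest annotated genes could be tested and 2 were called higher, Capsl (0.68, limma adjusted p = 0.0133) and Prlr, the prolactin receptor gene (0.45, adjusted p = 0.0418). The count was 1 without hSKP2-KI replicate 3 or 4 or without WT replicate 1 or 4, and 0 after median-ratio scaling. Prlr lost its call without any of these 4 mice or WT replicate 2 (adjusted p between 0.0692 and 0.113). Nadk2, the tested neighbour on the other side of Skp2, differed by 0.14 (adjusted p = 0.353). Among the 10 tested genes on each side of Skp2, 7 of 20 were called higher, with differences between -0.15 and 0.73, and 1 was after median-ratio scaling, Osmr, the oncostatin M receptor gene (0.52, adjusted p = 0.0287). Of all tested genes 32.7% were called higher, and 6.92% after that scaling. No gene near Skp2 approached its difference of 4.16.

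**Figure D2:**
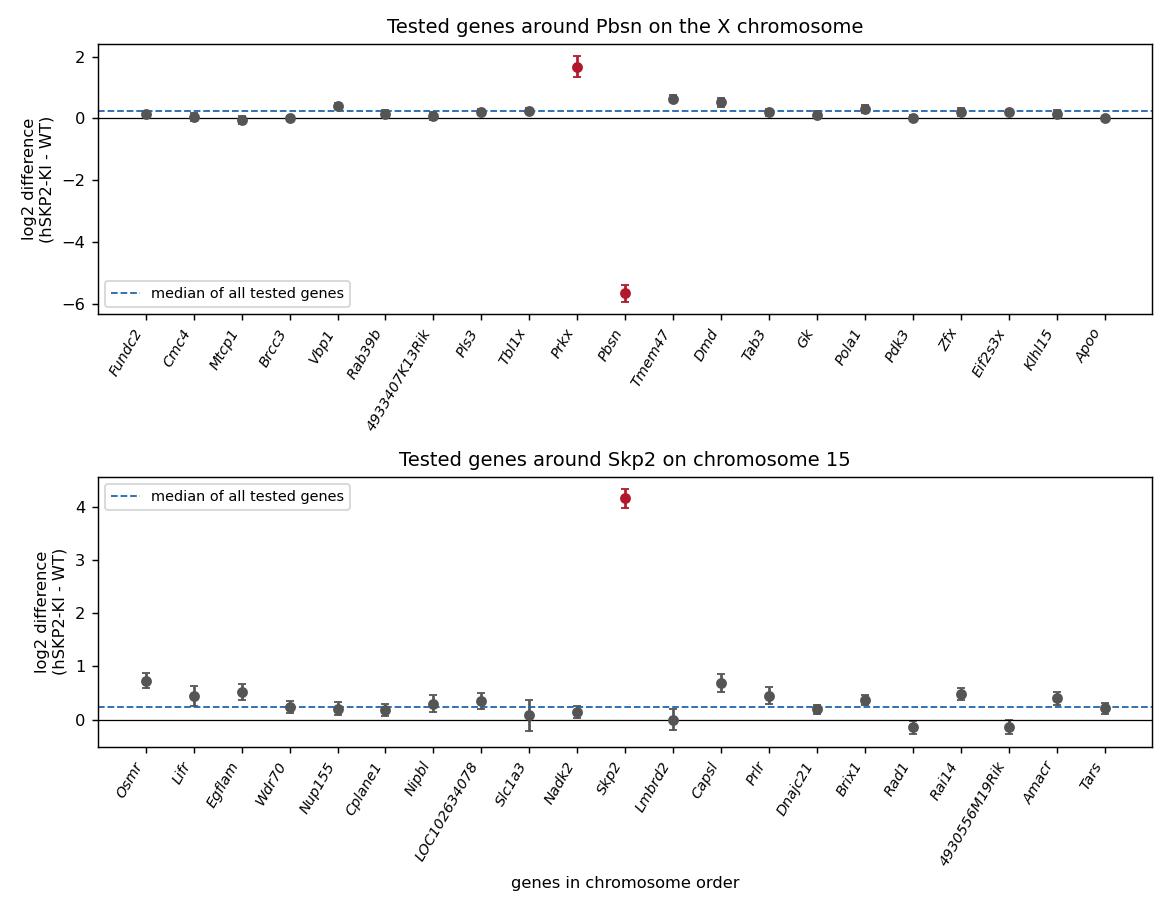
Difference in log2(TPM + 1) between hSKP2-KI and WT prostates (vertical axes, points with ± 1 standard error from limma) for the 10 tested genes on each side of Pbsn (top) and of Skp2 (bottom), in chromosome order; members are red and the dashed line is the median of all tested genes, 0.23. Apart from Prkx at 1.68 and Pbsn at -5.66 the genes in the top plot lie between -0.05 and 0.63, and apart from Skp2 at 4.16 those in the bottom plot lie between -0.15 and 0.73.

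Factors that act on the probasin promoter were taken next. Of 12 listed, which include FOXA and nuclear factor I proteins and receptor coactivators, 11 were tested. Their median difference was 0.22, against 0.23 over all genes. Of the 11, 4 were called higher and 0 lower, where 32.7% of all tested genes were called higher and 1.23% lower. Those called included the nuclear factor I genes Nfib (0.45, limma adjusted p = 0.00609) and Nfia (0.46, adjusted p = 0.00831) and the coactivator gene Ncoa3 (0.58, adjusted p = 0.00925). After median-ratio scaling none of the 11 was called higher and 2 were called lower, the pioneer factor gene Foxa1 (-0.33, adjusted p = 0.0342) and Nfix (-0.22, adjusted p = 0.0477). With that scaling 6.92% of all tested genes were called higher and 4.25% lower.

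Genes that, like Pbsn, respond to androgen in the prostate moved in both directions. The 12 listed genes were all tested, and 4 were called higher and 3 lower, where 32.7% of all tested genes were called higher and 1.23% lower. Their median difference was 0.08, against 0.23 over all genes. In 5 of the 12, Tmprss2, Azgp1, Spink1, Sbp and Sbpl, every hSKP2-KI sample lay below every WT sample, as in 1.03% of all tested genes. Sbp (-0.25, standard error 0.24, limma adjusted p = 0.398) and Sbpl (-0.40, standard error 0.19, adjusted p = 0.112) were nevertheless not called. Their standard errors are set in part by other genes, so the missing calls do not measure the spread of their values between mice. After median-ratio scaling 8 of the 12 differences were below 0, with a median of -0.19, and 2 were called lower and 0 higher. Over all tested genes 4.25% were called lower and 6.92% higher after that scaling. Azgp1, a secreted glycoprotein gene, was lower, with mean TPM of 293 in hSKP2-KI and 569 in WT prostates and a log2 difference of -0.93 (limma, adjusted p = 0.00321). The membrane protease gene Tmprss2 was also lower (-0.44, adjusted p = 0.0169), as was the secreted protease inhibitor gene Spink1 (-0.76, adjusted p = 0.0219), whose call was lost without hSKP2-KI replicate 2 (adjusted p = 0.0713) or WT replicate 1 (adjusted p = 0.0684). Msmb, which codes for a secreted microseminoprotein, was higher, with mean TPM of 9664 and 4867 and a log2 difference of 0.96 with a standard error of 0.19 (adjusted p = 0.00599), and Ndrg1, a stress-responsive gene, was higher by 0.62 (adjusted p = 0.00431). The transglutaminase gene Tgm4 (2.23, adjusted p = 0.028) and the acid phosphatase gene Acpp (0.46, adjusted p = 0.044) were also called higher. Without hSKP2-KI replicate 1, which held 77.5 TPM, the Tgm4 difference was 1.35 (adjusted p = 0.00181). Tgm4 lost its call without WT replicate 1, 3 or 4 (adjusted p between 0.0529 and 0.0665), and Acpp without hSKP2-KI replicate 2, 3 or 4 or WT replicate 1, 3 or 4 (adjusted p between 0.0647 and 0.114). The pair called lower after median-ratio scaling were Azgp1 (-1.20, adjusted p = 0.00416) and Tmprss2 (-0.71, adjusted p = 0.0175). The difference of Pbsn, at -5.66, was larger in size than any of these. Counted together with the promoter factors, 11 of the 23 tested genes were called, and 7 without WT replicate 1.

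For Skp2, the partners of the ligase, its substrates and the genes that control it were examined. Of 10 genes of the complex and its cofactors in the deposited data, 9 were tested, 3 were called higher and 0 lower. Over all tested genes 32.7% were called higher and 1.23% lower. The list had a median of 0.23, equal to that of all genes. After median-ratio scaling 0 of its genes were called, where 6.92% of all tested genes were called higher and 4.25% lower. Skp1a, which codes for the adaptor that holds the F-box of SKP2, had a TPM of 235, 221, 224 and 249 in hSKP2-KI and 197, 185, 166 and 183 in WT replicates 1 to 4. Skp1a genotypes did not overlap, with a log2 difference of 0.35 with a standard error of 0.08 (limma, adjusted p = 0.00832), and 0.08 after median-ratio scaling (adjusted p = 0.634). Cks1b, the cofactor through which SKP2 grips p27, had means of 36.5 and 31.5 TPM and a difference of 0.21 (adjusted p = 0.196), or -0.05 after median-ratio scaling (adjusted p = 0.845). The RING subunit gene Rbx1 differed by 0.23 (adjusted p = 0.0554), or -0.03 after that scaling (adjusted p = 0.874). The second cofactor gene, Cks2, was called at 0.52 (adjusted p = 0.0429), but its adjusted p lay between 0.0640 and 0.101 without hSKP2-KI replicate 1, 2 or 3 or WT replicate 1, 3 or 4. The signalosome subunit gene Cops5, at 0.23 (adjusted p = 0.0327), lost its call without any 1 hSKP2-KI replicate or WT replicate 3 or 4 (adjusted p between 0.0602 and 0.0897), and its direction turned after median-ratio scaling (-0.03).

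Among 13 genes coding for substrates of SKP2, 12 were tested, with a median of 0.23. Of the 12, 3 were called higher and 0 lower, where 32.7% of all tested genes were called higher and 1.23% lower. Cdkn1b, which codes for p27, had a TPM of 35.7, 40.8, 36.6 and 39.6 in hSKP2-KI and 26.6, 36.9, 31.2 and 34.1 in WT replicates 1 to 4. The Cdkn1b genotypes overlapped, with a log2 difference of 0.25 and a standard error of 0.10 (limma, adjusted p = 0.0817), and the adjusted p was 0.0380 without WT replicate 2. After median-ratio scaling the Cdkn1b difference was -0.02 (adjusted p = 0.906). SKP2 acts on the protein, which was not measured here. Ccnd1, which codes for cyclin D1, was the most changed substrate gene, with mean TPM of 53.6 and 26.7 and a log2 difference of 0.95 with a standard error of 0.17 (adjusted p = 0.00365), and 0.69 after median-ratio scaling (adjusted p = 0.0343). The pocket protein gene Rbl2 was higher by 0.58 (adjusted p = 0.0049) and by 0.31 after median-ratio scaling (adjusted p = 0.0412). The forkhead factor gene Foxo1 was higher by 0.45 (adjusted p = 0.0151), which fell to 0.20 after median-ratio scaling (adjusted p = 0.189), where Myc was instead called lower (-0.33, adjusted p = 0.0445). Cdkn1c, a second inhibitor of the p27 family, differed by 0.45 (adjusted p = 0.065), and by 0.60 without hSKP2-KI replicate 3 (adjusted p = 0.0217) and 0.55 without WT replicate 4 (adjusted p = 0.0464).

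Over these lists and 5 tested genes that control SKP2, 7 of 26 were called, all higher, where 32.7% of all tested genes were. The count was 4 without hSKP2-KI replicate 2 or WT replicate 3. Proliferation genes were set beside these lists, since SKP2 acts in the cell cycle. The mean log2 level of 18 such genes was 0.07 higher in hSKP2-KI prostates (exact permutation test, two-sided, p = 0.514), with a summed TPM between 83.3 and 102.7 in hSKP2-KI and between 60.8 and 86.9 in WT prostates. Much of that sum was Pcna, at 48.4 to 54.0 TPM in hSKP2-KI and 26.2 to 43.2 in WT prostates. Of the 18 genes 12 were tested, with 2 called higher and 0 lower. After median-ratio scaling 0 were called higher and 1 lower, where 6.92% of all tested genes were called higher and 4.25% lower. The median difference of all tested genes was 0.23. After median-ratio scaling the difference of the proliferation list was -0.08, and its genotypes overlapped with and without that scaling. Mki67, which codes for the Ki67 antigen, had mean TPM of 0.646 and 0.683 and was too low to be tested.

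For Prkx, the relatives in the cAMP-dependent protein kinase family were examined. Of 9 listed genes 8 were tested, 4 were called higher and 0 lower, where 32.7% of all tested genes were called higher and 1.23% lower, and the median was 0.32. After median-ratio scaling 2 of the 8 were called higher, where 6.92% of all tested genes were. The catalytic subunit gene Prkacb had a TPM of 36.7, 43.2, 47.4 and 52.7 in hSKP2-KI and 21.3, 26.9, 24.7 and 25.1 in WT replicates 1 to 4. Prkacb genotypes did not overlap, and its hSKP2-KI replicate 3 did not stand apart as it did for Prkx. The log2 difference of Prkacb was 0.84 with a standard error of 0.12 (limma, adjusted p = 0.0013), and 0.58 after median-ratio scaling (adjusted p = 0.00652). The regulatory subunit genes Prkar1b (0.83, adjusted p = 0.00455) and Prkar1a (0.48, adjusted p = 0.00221) were higher, and Prkar1b remained called after median-ratio scaling (0.63, adjusted p = 0.0283). The main catalytic subunit gene Prkaca differed by 0.29 (adjusted p = 0.0271) and lost its call without hSKP2-KI replicate 3 or 4 or WT replicate 1, 3 or 4 (adjusted p between 0.0515 and 0.0761). After median-ratio scaling the Prkaca difference was 0.02 (adjusted p = 0.89).

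For Pbsn, other lipocalin genes were examined, and 18 of the 23 listed were too low to be tested. Of the 5 tested, 2 were called higher and 0 lower, where 32.7% of all tested genes were called higher and 1.23% lower. After median-ratio scaling 0 of the 5 were called, where 6.92% of all tested genes were called higher and 4.25% lower. Lcn2, a lipocalin that binds bacterial iron carriers, differed by 0.72 (limma, adjusted p = 0.0112). Apod, which codes for apolipoprotein D, had mean TPM of 326 and 230 and a difference of 0.50 (adjusted p = 0.0399), and it lost its call without hSKP2-KI replicate 2, 3 or 4 or WT replicate 1 or 2 (adjusted p between 0.0531 and 0.112). Orm1, an acute-phase lipocalin gene, differed by 0.72 (adjusted p = 0.104), with an adjusted p of 0.0356 without WT replicate 1, and C8g differed by 0.19 (adjusted p = 0.237). None of these 5 shared the direction of Pbsn by a called difference.

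**Figure D3:**
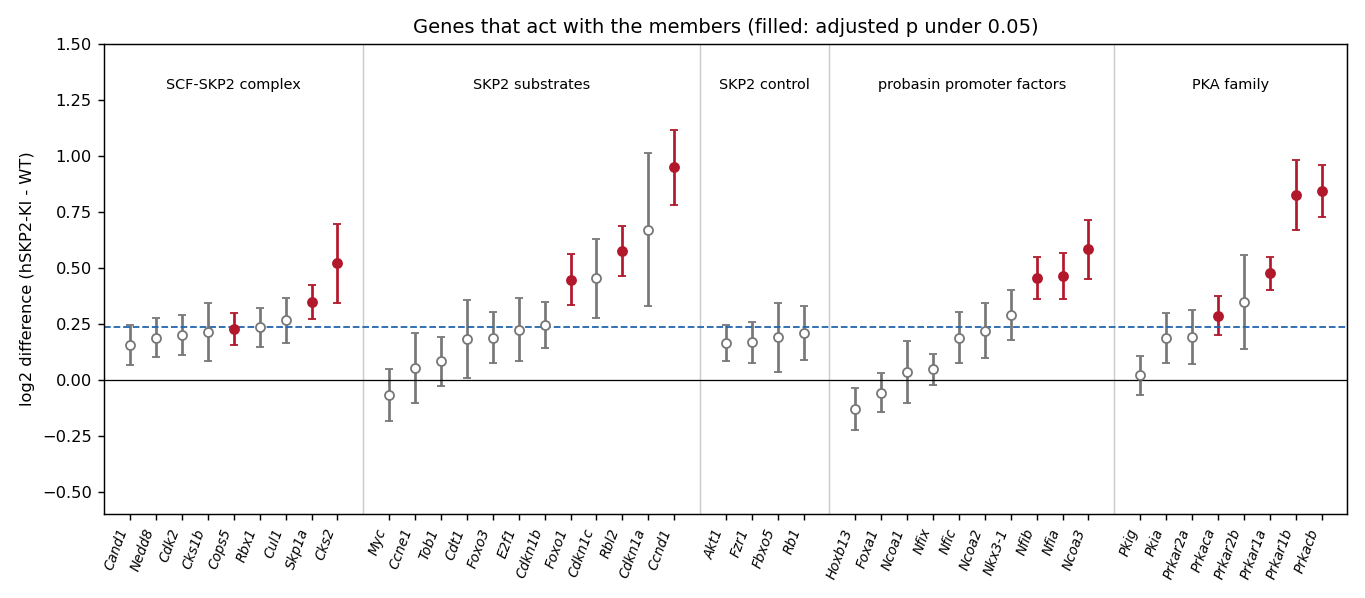
Difference in log2(TPM + 1) between hSKP2-KI and WT prostates (vertical axis, points with ± 1 standard error from limma) for tested genes of 5 lists; filled red points have an adjusted p under 0.05 and the dashed line is the median of all tested genes, 0.23. Ccnd1 at 0.95 is the highest point, Cdkn1b lies at 0.25, and every called gene lies above 0.

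The genes whose profiles were most like those of the members were found by the root mean square difference of log2(TPM + 1), each gene centred on its own mean over the 8 samples. Because the members differ by genotype, genes near them differ by genotype too. For Skp2 the nearest were Gm5615 (0.577), Lrrc31 (0.760) and Fcgbp, which codes for a mucus protein that binds immunoglobulin G (0.885). Gm5615 (Entrez 434396) had a TPM of 19.0, 6.24, 12.4 and 18.6 in hSKP2-KI replicates 1 to 4 and at most 0.368 in WT prostates. It was lowest in hSKP2-KI replicate 2, whereas Skp2 was lowest in replicate 3.

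For Pbsn the nearest was Gm29779 (Entrez 101056102, 0.665), with a TPM between 15.5 and 29.5 in WT prostates. In hSKP2-KI prostates Gm29779 was listed at 0 in 3 mice and at 0.0410 in replicate 3. Next came the noradrenaline transporter gene Slc6a2 (1.32) and 1810062G17Rik (1.64), both well below their WT values in every hSKP2-KI mouse.

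For Prkx the nearest genes included Msln, which codes for mesothelin (0.390), and the cytokine gene Il17b (0.391). The Msln TPM was 4.52, 7.77, 2.08 and 3.53 in hSKP2-KI replicates 1 to 4 and at most 0.652 in WT prostates. The Il17b TPM was 5.96, 7.95, 2.90 and 3.54 in hSKP2-KI replicates 1 to 4 and at most 1.27 in WT prostates. Like Prkx, Msln and Il17b were each lowest in replicate 3 among hSKP2-KI mice, which the measure of likeness favours, and their genotypes did not overlap.

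**Figure D4:**
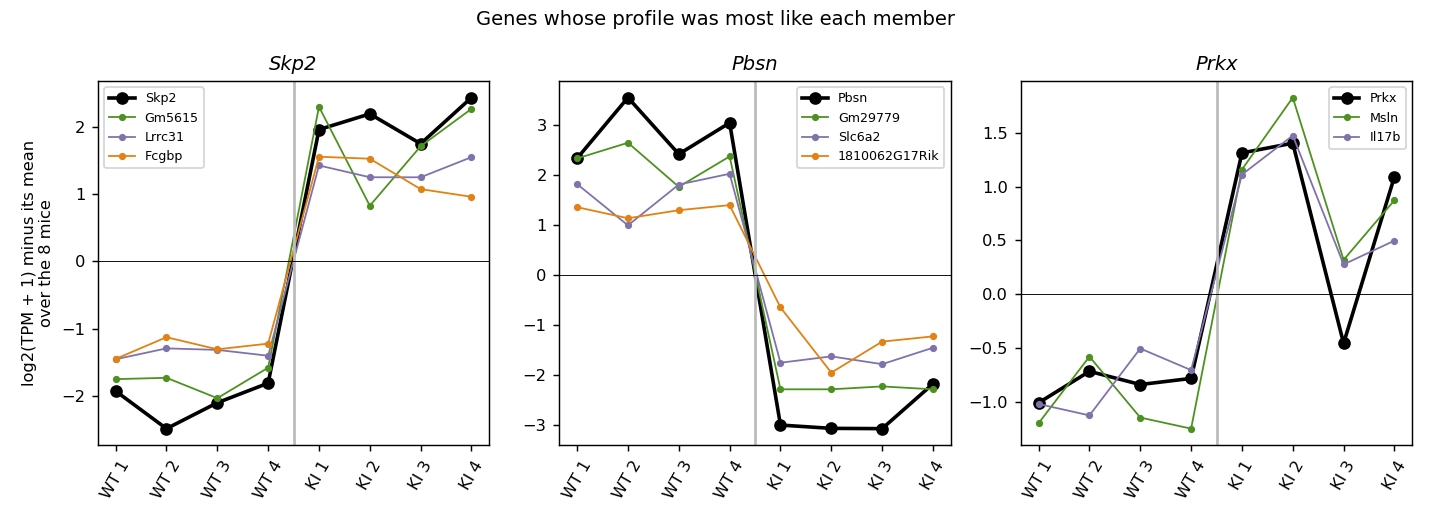
Profiles of log2(TPM + 1), each centred on its mean over the 8 mice (vertical axes), for Skp2, Pbsn and Prkx (black) and genes nearest to each (coloured), over WT mice (left of the grey line) and hSKP2-KI (KI) mice (right). The step at the line is shared by the genes because it defines likeness, and Prkx falls back to near its WT values in hSKP2-KI replicate 3.

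Whole lobes hold several cell types, and in such tissue fewer cells of a type and less RNA per cell cannot be told apart. Marker lists were therefore set beside the members, each as the mean log2(TPM + 1) of its genes. The test of each list was an exact permutation over samples, two-sided, whose smallest p with 4 against 4 samples is 0.0286 (0.0476 after Benjamini-Hochberg adjustment over 10 lists). The 8 luminal epithelial genes, among them Krt8, Krt18 and Epcam, were all detected, with a summed TPM between 2712 and 3467 in hSKP2-KI and 2438 and 2662 in WT prostates. The luminal list differed by 0.24 (exact p = 0.0286) and by -0.02 after median-ratio scaling. Relative to the luminal mean in the same mouse, Pbsn differed by -5.91, Skp2 by 3.91 and Prkx by 1.43, and in each case the genotypes did not overlap.

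The 3 ventral lobe genes Sbp, Sbpl and Spink1 were lower in hSKP2-KI prostates (log2 difference -0.47, exact p = 0.0286), with a summed TPM between 321196 and 343438 against 404156 and 458469. Relative to this list Pbsn differed by -5.19, Skp2 by 4.63 and Prkx by 2.15, again with no overlap. Msmb and Tgm4, which are made mainly in other prostate lobes, were together higher by 1.60 on that scale (exact p = 0.0286), with a summed TPM between 7142 and 13622 against 4129 and 6071. Tgm4 was at 77.5 TPM in hSKP2-KI replicate 1 and between 4.99 and 6.74 in the other hSKP2-KI mice. The 7 seminal vesicle genes summed to at most 0.666 TPM in any mouse, and 3 of them were listed at 0 in all.

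The 6 fibroblast genes differed by 0.99, with a summed TPM between 759 and 1333 in hSKP2-KI and 420 and 605 in WT prostates. The 6 smooth muscle genes differed by 0.77, with 3011 to 4624 against 2032 to 2564, and the 5 endothelial genes by 0.66, with 30.0 to 54.0 against 17.6 to 26.5 (p = 0.0286 each, exact permutation test). After median-ratio scaling the fibroblast (0.73) and smooth muscle (0.50) lists still had no overlap between genotypes, whereas the endothelial list (0.44) overlapped. The basal list (0.47, exact p = 0.0857) and the leukocyte list (0.77, exact p = 0.114) had overlapping genotypes. The part of lobe and cell type makeup in the differences of Skp2, Pbsn and Prkx was not tested.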

How the data were processed

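The authors sequenced poly-A RNA as paired-end reads and mapped them in CLC software (version, annotation and counting options not given in the sources used here; the submitters' processing notes name the builds mm10 and GRCm38). The authors deposited TPM for 36333 genes and 8 samples, 0 columns belonging to other samples. The paper gives a single figure for the paired-end reads. Read numbers of each library cannot be had from TPM, so the depth of each is unknown, and no counting interval is given.

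Samples were grouped by the genotype in their labels. limma 3.58.1 (R 4.3.3, trend option) was run on log2(TPM + 1) of the 13080 genes that reached a TPM of 1 in 4 or more samples. The procedure was tested on simulated data. Positions are from RefSeq and GENCODE vM21 in GRCm38, and sequences from RefSeq GRCm38.p6. Promoter windows matched Skp2 and Pbsn. Nothing shows whether the mice were littermates. The limma p-values weigh a difference against the spread between these mice after it is drawn towards that of genes of similar level. They do not measure the spread between these mice alone. Members and gene lists were chosen with earlier results of these data known. Genes named were the members, neighbours of Pbsn within 3 places, the 4 smallest adjusted p in each list, genes with a set role (Cdkn1b, Cks1b, Skp1a, Prkaca, Prkacb) and the 3 genes most like each member. Some genes within this rule are not reported here. Genes named outside that rule, after their values were seen, were the called tested neighbours of Pbsn, Capsl, Prlr, Osmr, Nadk2, Lmbrd2, Tbl1x, Myc, Foxa1, Nfix, Spink1, Tgm4, Acpp and Mki67. Sbp, Sbpl, Krt8, Krt18, Epcam, Obp1a, Obp1b and Pcna were also named outside it. Alternatives were another pseudocount, 2 other filters, 3 other scalings, a replicate block and each sample left out. Python 3.11.15 and matplotlib 3.10.9 were used.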

Additional observations from a re-analysis of the deposited data

Results flagged for a closer look

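Groups of 4 samples were screened on the log2(TPM + 1) scale over 63 genes, those within the naming rule and some others named in the text. In 8 of 117 groups the highest or the lowest sample lay farther from its nearest neighbour than Dixon's 95% criterion allows. Chance flags about 1 in 20 such groups, and no cause was tested for any of them. Among the members, Pbsn was at 173.8 TPM in hSKP2-KI replicate 4 and between 93.0 and 97.8 in the other hSKP2-KI mice. Prkx was at 17.2 TPM in hSKP2-KI replicate 3 and between 52.3 and 65.2 in the others. Of the genes that act with SKP2, Ccnd1 was at 77.2 TPM in hSKP2-KI replicate 2 against 44.5 to 47.6, Cdkn1c at 11.1 TPM in hSKP2-KI replicate 3 against 16.3 to 17.6, Fzr1 at 38.8 TPM in hSKP2-KI replicate 1 against 31.0 to 31.9, and Myc at 41.2 TPM in WT replicate 2 against 28.1 to 29.7. Of the secretory genes, Sbp was at 218476 TPM in hSKP2-KI replicate 3 against 198342 to 200832, and Tgm4 at 77.5 TPM in hSKP2-KI replicate 1 against 4.99 to 6.74. The flagged values of hSKP2-KI mice were spread over all 4 replicates.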

How the results depend on the processing

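The log2 difference of Pbsn lay between -5.88 and -5.42, that of Skp2 between 4.02 and 4.27 and that of Prkx between 1.49 and 2.11 with each mouse left out in turn, and no alternative run turned the direction of any of them; a pseudocount of 0.1 moved Skp2 from 4.16 to 4.73. The number of genes called, 4433, was between 2993 and 4677 with 1 mouse left out. It was 1461 (905 higher and 556 lower) after median-ratio scaling, 1317 (709 and 608) after quantile normalization and 1330 (892 and 438) with TPM rescaled without the 20 most abundant genes. Under these 3 scalings, in that order, the calls fell from 7 to 3, 2 and 1 in the SKP2 lists, from 11 to 4, 6 and 7 in the probasin regulation lists, from 6 to 2, 2 and 3 in the lipocalin and kinase families and from 2 to 0, 0 and 0 among the neighbours of Skp2; the difference of Cops5 turned to -0.0344, -0.000753 and -0.0134. With 1 mouse left out these counts were 4 to 9, 7 to 11, 4 to 6 and 1 to 2, that of the annotated neighbours of Pbsn 0 to 0, and that of marker lists without overlap 6 to 7. With no filter on low values 7 probasin regulation genes and 1 neighbour of Skp2 were called, and with a mean TPM of at least 5 that neighbour count was 1. With the 10 tested genes on each side, chosen after the data were seen, 4 neighbours of Pbsn and 7 of Skp2 were called.

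Replicate numbers did not pair the mice: after subtracting genotype means, same-numbered samples correlated at 0.22, -0.11, 0.17 and -0.01 across genes, and not every sample correlated best with its own number. With a replicate block 5128 genes were called. TPM keeps no depth, so how much of the spread in low values such as Gm14744 is counting error is unknown.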
